A study of Mus musculus with 39 samples.

Results

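The genes described here are 7 mouse genes known for their part in the making of primordial germ cells: Prdm1, Prdm14, Nanos3, Dnd1, Kit, Ifitm1 and Ifitm3. They were taken by symbol, with earlier results of these data known, as the rows bearing these names among the 47643 genes listed in each of the deposited count tables, and all 7 were found. RNA was sequenced from 39 samples: 35 single epiblasts, each dissected from 1 embryo, and 4 epiblast stem cell (EpiSC) lines. Epiblasts came from inter-crosses of mice heterozygous for a Stat3 null allele, in which a neomycin cassette replaces exons of Stat3, on the CD1 background, and the embryo's own extraembryonic tissue gave its genotype. At embryonic day (E) 5.5 the series holds 4 Stat3 null epiblasts and 2 WT, at E6.5 it holds 8 and 9, and at E7.5 it holds 3 and 9. The EpiSC lines, Stat3 null 2 and 6 and WT 8 and 13, are 1 line each, derived from epiblasts of the same crosses and kept on fibronectin in N2B27 medium with FGF2, activin A and XAV-939, an inhibitor of Wnt signalling. All groups share the CD1 background and differ by genotype and stage, and nothing in the labels ties an embryo to a litter.

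Primordial germ cells are the founders of eggs and sperm. In the mouse they arise from a small group of proximal posterior epiblast cells that receive BMP signals from the extraembryonic ectoderm and Wnt signals from the posterior epiblast, turn on the transcriptional repressor Prdm1 (Blimp1) and then Prdm14, and become a cluster at the base of the allantois during gastrulation. None of the 7 genes is private to germ cells. Prdm1 is also transcribed in the visceral endoderm, the layer that encloses the epiblast, Ifitm1 and Ifitm3 in mesoderm, and Kit in blood and endothelial precursors, so that a bulk library reads every source at once. A lower level in a whole epiblast can reflect fewer cells of a type or less RNA per cell, and these cannot be told apart in bulk samples.

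Libraries held 22941210 to 79013960 counts for epiblasts and 63445877 to 127583699 for EpiSC lines, and levels are given as CPM, the count scaled to a common library total. A count of 0 allows up to 3 counts, which is 0.0380 to 0.131 CPM in the epiblast libraries, for counting error alone. The mean of Stat3 itself was lower in every Stat3 null group. At E6.5 the ranges overlapped, at 1.41 to 7.59 CPM in Stat3 null and 5.84 to 27.2 in WT. There Stat3 was called by DESeq2 (adjusted p = 0.0185) but in no edgeR fit. At E7.5 the 3 Stat3 null libraries held 1.48, 1.29 and 1.22 CPM and the WT libraries 4.80 to 25.3, so that Stat3 fell by 3.31 on the log2 scale (standard error 0.44, adjusted p = 0.00808), while at E5.5 Stat3 null libraries held 9.21 to 22.7 CPM against 39.3 and 49.4 in WT, which was not called (-1.41, standard error 0.36, adjusted p = 0.999). Stat3 null 1 to 3 and WT 1 to 3 of E6.5 stood apart in depth, with 43606327 to 79013960 counts but only 15171 to 19380 genes detected, against 20338 to 22310 in the other 11. E5.5 Stat3 null 1 went against its label as an epiblast: it held the lowest level of Pou5f1, the pluripotency factor of the epiblast, at 0.654 CPM, and a summed level of 2094 CPM over 10 markers of extraembryonic ectoderm, against 365 to 972 in the other 5 libraries of that stage. E6.5 Stat3 null 1 was likewise high in that sum, at 1382 CPM. E7.5 WT 3 held 5992 CPM summed over 8 epiblast markers, against 1132 to 3227 in the other 8 WT libraries. The E7.5 Stat3 null libraries held 5805, 6129 and 4386 CPM in that sum, and those of E6.5 WT 4369 to 7130. The results were also computed without E5.5 Stat3 null 1, E6.5 Stat3 null 1, E7.5 WT 3 and E6.5 WT 3. The visceral endoderm sum of E6.5 WT 3 was 5289 CPM. E6.5 Stat3 null 3, with a higher sum of 6338 CPM, was kept.

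On GRCm38 with GENCODE vM21, whose gene identifiers match 47224 of the listed genes, Prdm1 lies at chr10:44437177-44528501 (minus strand), Prdm14 at chr1:13113457-13127163 (minus), Nanos3 at chr8:84173731-84185217 (minus) and Kit at chr5:75574916-75656722 (plus). Ifitm1 (chr7:140967221-140969825, plus) and Ifitm3 (chr7:141009586-141010770, minus) are neighbours in the Ifitm cluster. All are protein-coding. Ifitm1 has a 319-base stretch 97.5% identical to Gm7676 and a 212-base stretch 89.6% identical to Ifitm3, so reads from these stretches may be split or lost.

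The promoters of Prdm1, Ifitm1 and Ifitm3 are shown because these were the 3 genes of the set that read lower in E7.5 Stat3 null than in WT epiblasts at an unadjusted p under 0.05. Each is the 250 bases before the transcription start in RefSeq (GRCm38.p6), written 5′ to 3′ along the gene's own strand. Capitals mark matches to a GC box (GGGCGG) or a CCAAT box on either strand. The Prdm1 window is chr10:44458749-44458998 (minus), the Ifitm1 window chr7:140967826-140968075 (plus) and the Ifitm3 window chr7:141010745-141010994 (minus). The Prdm1 and Ifitm1 windows lie inside the longer GENCODE genes, and the Ifitm3 window overlaps the first bases of its GENCODE gene.
Prdm1: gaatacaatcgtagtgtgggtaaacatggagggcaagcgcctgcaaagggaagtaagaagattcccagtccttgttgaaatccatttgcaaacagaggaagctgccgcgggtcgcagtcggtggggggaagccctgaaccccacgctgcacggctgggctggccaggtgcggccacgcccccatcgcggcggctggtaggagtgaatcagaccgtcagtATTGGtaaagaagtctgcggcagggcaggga
Ifitm1: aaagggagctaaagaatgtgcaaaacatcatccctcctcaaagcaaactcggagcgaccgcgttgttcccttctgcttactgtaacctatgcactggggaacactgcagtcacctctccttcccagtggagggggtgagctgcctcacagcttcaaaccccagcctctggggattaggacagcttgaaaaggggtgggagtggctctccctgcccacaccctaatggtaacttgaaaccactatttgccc
Ifitm3: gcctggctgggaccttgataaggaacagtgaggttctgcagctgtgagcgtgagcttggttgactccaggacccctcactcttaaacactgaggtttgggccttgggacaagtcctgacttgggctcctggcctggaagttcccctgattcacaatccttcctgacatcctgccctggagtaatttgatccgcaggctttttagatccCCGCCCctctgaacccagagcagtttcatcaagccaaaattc

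The Prdm1 window held a CCAAT box in reverse, which began 31 bases before the start, and the Ifitm3 window a GC box in reverse, which began 42 bases before it. The Ifitm1 window held neither. The core letters of a STAT-binding site, TTCNNNGAA, which read the same on both strands, and an interferon regulatory factor motif, GAAANNGAA, searched on both strands, were each found in 0 of the 5 members with a promoter entry (Prdm1, Nanos3, Kit, Ifitm1 and Ifitm3). Of 32851 promoters of the same length, 7.02% held the STAT letters, 7.13% the interferon regulatory factor letters, 32.7% a GC box, 33.8% a CCAAT box and 12.4% the TATA box letters TATAAA. The windows of Nanos3 and Kit each held a GC box. These matches describe the letters of the windows only.

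Across the 11 comparisons, few of the 7 genes passed the test, which asked for a log2 fold change beyond 1 in either direction and an adjusted p under 0.05. P-values came from the quasi-likelihood test of edgeR and were adjusted by the Benjamini-Hochberg method over every gene tested. Between genotypes, 0 of 6 genes tested were called at E5.5, where 0.0% of all tested genes were called and 467 genes reached an unadjusted p under 0.05, and 0 of 5 at E6.5, where 0.0% were called and 1414 reached it. By DESeq2 0 members were called in either, beside 31 genes in all at E5.5 and 37 at E6.5. At E7.5, 1 of 5 was called, Prdm1, beside 1.17% of all genes, 215 of the 231 called genes being lower in the Stat3 null. That total was 1105 without WT 3 (220 higher and 885 lower), 0 without Stat3 null 2, 31 without Stat3 null 1, 20 without Stat3 null 3, 47 to 155 without each other WT library and 1038 by DESeq2. From E5.5 to E6.5 in WT, 1 of 6 was called, Ifitm3, beside 5.15% of all genes, and from E6.5 to E7.5 in WT, 2 of 5, Ifitm1 and Prdm1, beside 8.83%. No member was called by edgeR in the other 6 comparisons, which had 1.98% of genes called for Stat3 null E6.5 against E5.5, 0.103% for Stat3 null E7.5 against E6.5, 0.162% for Stat3 null E6.5 against WT E5.5, 0.162% for Stat3 null E7.5 against WT E6.5, 0.443% for the interaction of genotype with stage between E6.5 and E7.5, and 0.106% for the EpiSC lines. Several of these comparisons share libraries. Prdm14 passed the filter on low counts in none of the 11 comparisons, and Nanos3 in 5.

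**Figure D1:**
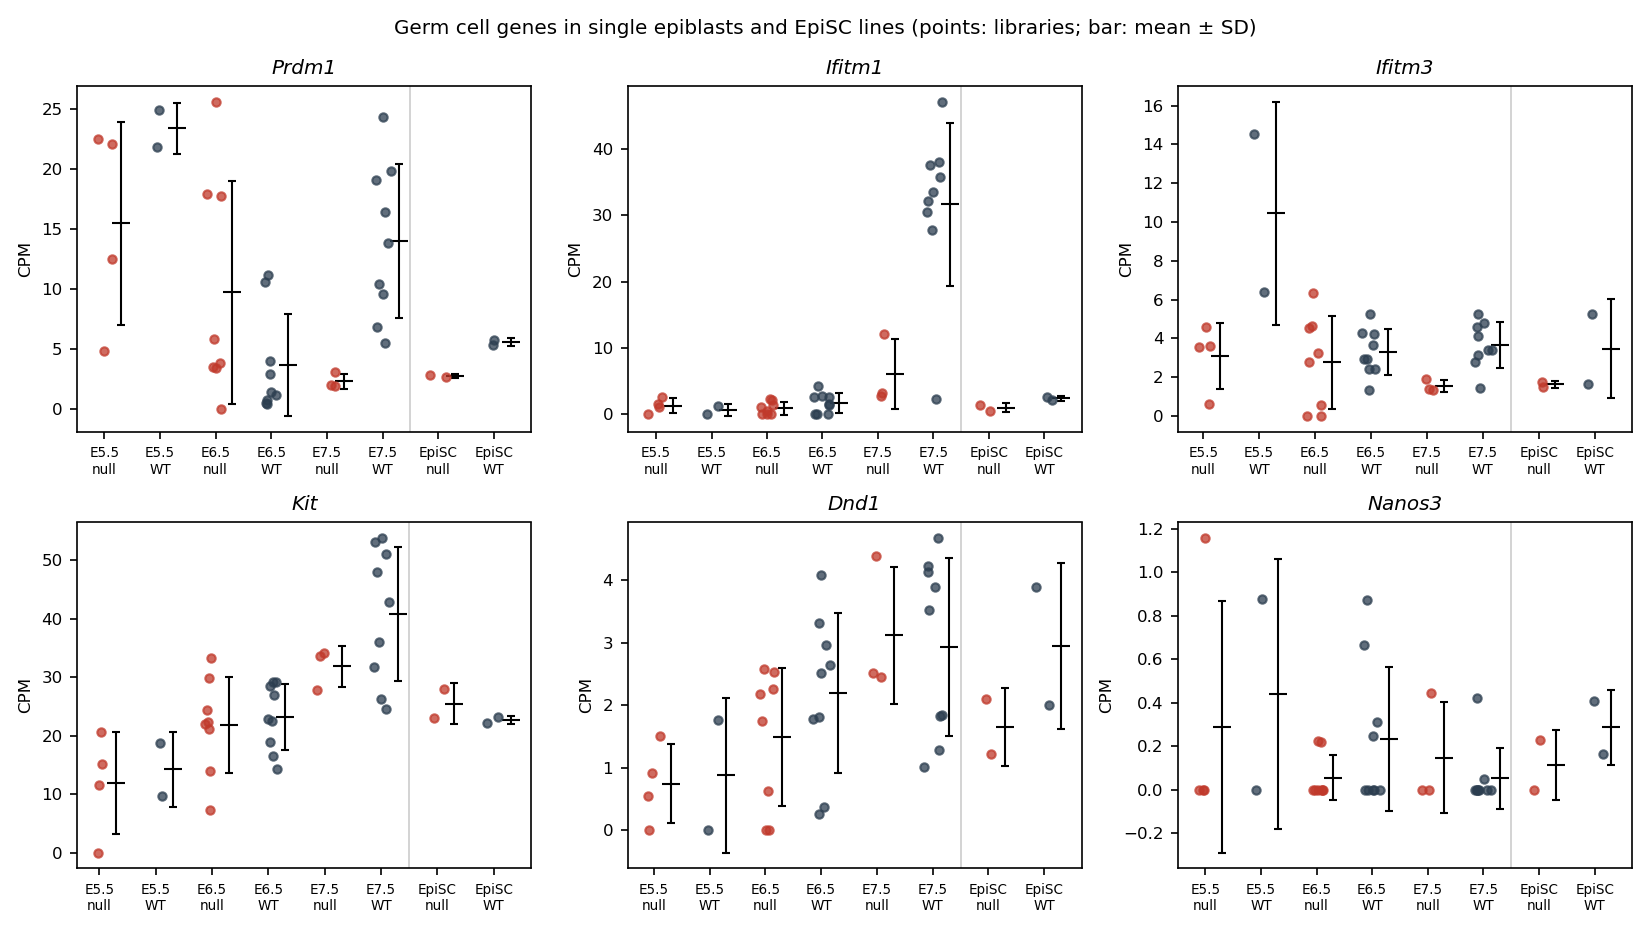
Level in CPM (vertical axis, linear) of 6 of the 7 genes in each group (horizontal axis), with 1 point for each library, Stat3 null in red and WT in dark blue, and the mean ± SD drawn beside the points; the vertical line separates epiblasts from EpiSC lines. Ifitm1 stands out in WT at E7.5, where 8 of 9 libraries lie between 27.9 and 47.2 CPM and WT 3 at 2.38, and Prdm1 spreads over more than 20 CPM within the E6.5 Stat3 null group.

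Levels of different genes can be set side by side only per length of transcript. Per kilobase of exon, the mean level in WT at E5.5 was highest for Ifitm3, at 15.4 CPM, followed by Prdm1 at 4.19 and Kit at 1.60, with Ifitm1, Nanos3, Dnd1 and Prdm14 under 1. In WT at E7.5 the order had changed. Ifitm1 was then highest, at 29.0 CPM per kilobase, with Ifitm3 at 5.4, Kit at 4.58, Prdm1 at 2.51 and Dnd1 at 1.22, while Prdm14 (0.116) and Nanos3 (0.0569) were lowest. These 2 were also the lowest of the set in WT at E6.5, at 0 and 0.252 CPM per kilobase.

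Prdm1 encodes the zinc-finger repressor that shuts down the somatic programme in germ cell precursors. At E5.5 it measured 21.8 and 24.9 CPM in WT and 4.85, 12.5, 22.5 and 22.1 CPM in Stat3 null 1 to 4. The 2 lower Stat3 null values lay below both WT values and the groups overlapped (log2 fold change -0.60, standard error 0.57, adjusted p = 0.999). At E6.5, WT libraries ranged from 0.394 to 11.1 CPM with a median of 1.38 and Stat3 null libraries from 0 to 25.6 with a median of 4.84. Stat3 null 3, 4 and 8, at 25.6, 17.9 and 17.7 CPM, exceeded every WT library, while the others lay within or below the WT range. The difference was not called (1.35, standard error 0.87, adjusted p = 0.774). It was 2.91 (standard error 0.65, adjusted p = 0.0775) in the 11 libraries under 40000000 counts and 0.25 (standard error 1.68) in the 6 deeper ones.

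At E7.5 Prdm1 was lower in every Stat3 null epiblast than in any WT epiblast. The 3 Stat3 null libraries held 3.04, 1.88 and 2.02 CPM, and the 9 WT libraries 5.48 to 24.3 with a median of 13.8. The groups did not overlap, and Prdm1 fell by 2.51 on the log2 scale (standard error 0.45, adjusted p = 0.0207). The call was lost without Stat3 null 1 (adjusted p = 0.0709), 2 (0.136) or 3 (0.0886) and in a single fit of all 35 epiblasts (0.444), with log2 fold changes of -2.38 to -2.76 in these fits, and it held without each WT library in turn, over which the adjusted p ran from 0.000712 to 0.0403. DESeq2 gave 1.25e-07 with a log2 fold change of -2.53.

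Across stages, Prdm1 in WT was lowest at E6.5. From E5.5 to E6.5 its log2 fold change of -2.62 (standard error 0.97) did not pass (adjusted p = 0.12), while with the E6.5 libraries under 40000000 counts alone it was -4.29 (standard error 0.57, adjusted p = 0.000453) and without E6.5 WT 3 -3.05 (adjusted p = 0.0462). From E6.5 to E7.5 Prdm1 rose by 1.82 (standard error 0.59, adjusted p = 0.0302). This call was lost without E6.5 WT 4 (adjusted p = 0.0507), 7 (0.0518) or 9 (0.0535), without E7.5 WT 4 (0.0514), 5 (0.0558) or 6 (0.0508), with no filter on low counts (0.0517) and in the single fit (0.0727). With only the shallower E6.5 libraries the rise was 3.44 (standard error 0.46, adjusted p = 7.2e-05). In Stat3 null epiblasts the corresponding values were -0.70 from E5.5 to E6.5 (adjusted p = 0.811) and -2.07 from E6.5 to E7.5 (adjusted p = 0.789). The difference between the genotypes in the E6.5 to E7.5 change was -3.88 on the log2 scale (standard error 1.40, adjusted p = 0.169). It was called with the shallower E6.5 libraries (-5.44, standard error 0.90, adjusted p = 0.00261) and without the libraries that stand apart (-4.55, adjusted p = 0.0101). DESeq2 also called it (adjusted p = 0.027), and the other fits did not. Leaving out the libraries that stand apart removed E6.5 Stat3 null 1, at 0 CPM of Prdm1, and E6.5 WT 3, at 10.5. E6.5 Stat3 null 3, at 25.6 CPM, was kept. The choice thus took a low Stat3 null and a high WT value from E6.5.

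Prdm1 moved with the RNA of the visceral endoderm. The summed level of 14 visceral endoderm markers, among them Afp, Ttr, Apoa1 and Amn, was 110 to 339 CPM in the 3 Stat3 null libraries of E7.5 and 435 to 4289 CPM in the 9 WT libraries, with no overlap, and no marker of the list stayed at or under 3 counts throughout either group. In the E6.5 Stat3 null group the 3 libraries with the highest Prdm1 had sums of 4091 to 6338 CPM and the other 5 had 351 to 1071. In the E6.5 WT group WT 1 and WT 3, the 2 highest in Prdm1, had sums of 1465 and 5289 CPM and the other 7 had 92.5 to 837. Over the 9 E7.5 WT libraries, log2 CPM of Prdm1 and of the marker sum had Pearson's r = 0.791 (exact permutation p = 0.0121, adjusted 0.0363 over 12 relations) and Spearman's rho = 0.75 (exact permutation p = 0.0255, adjusted 0.0885), and r was 0.775 without the 2 libraries farthest from the median sum. Over the 9 E6.5 WT libraries r was 0.875 (exact permutation p = 0.00262, adjusted 0.0157) and rho 0.717 (exact permutation p = 0.0369, adjusted 0.0885), with r = 0.644 without the 2 farthest. The E6.5 Stat3 null libraries fall into separate clusters of the sum, so that no r is given. E6.5 WT 1 and WT 3 likewise lay apart from the other 7 in the sum, and r in that group was lower without them (0.644). At E5.5 the sums were 5563 and 7028 CPM in WT and 643, 9833, 11374 and 7122 CPM in Stat3 null 1 to 4. The median sum in WT was 212 CPM at E6.5 and 1741 at E7.5. The part of visceral endoderm RNA in the differences of Prdm1 between genotypes and between stages was not tested. Dissection removed the visceral endoderm by hand, and what was left of it in a library is not recorded.

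**Figure D2:**
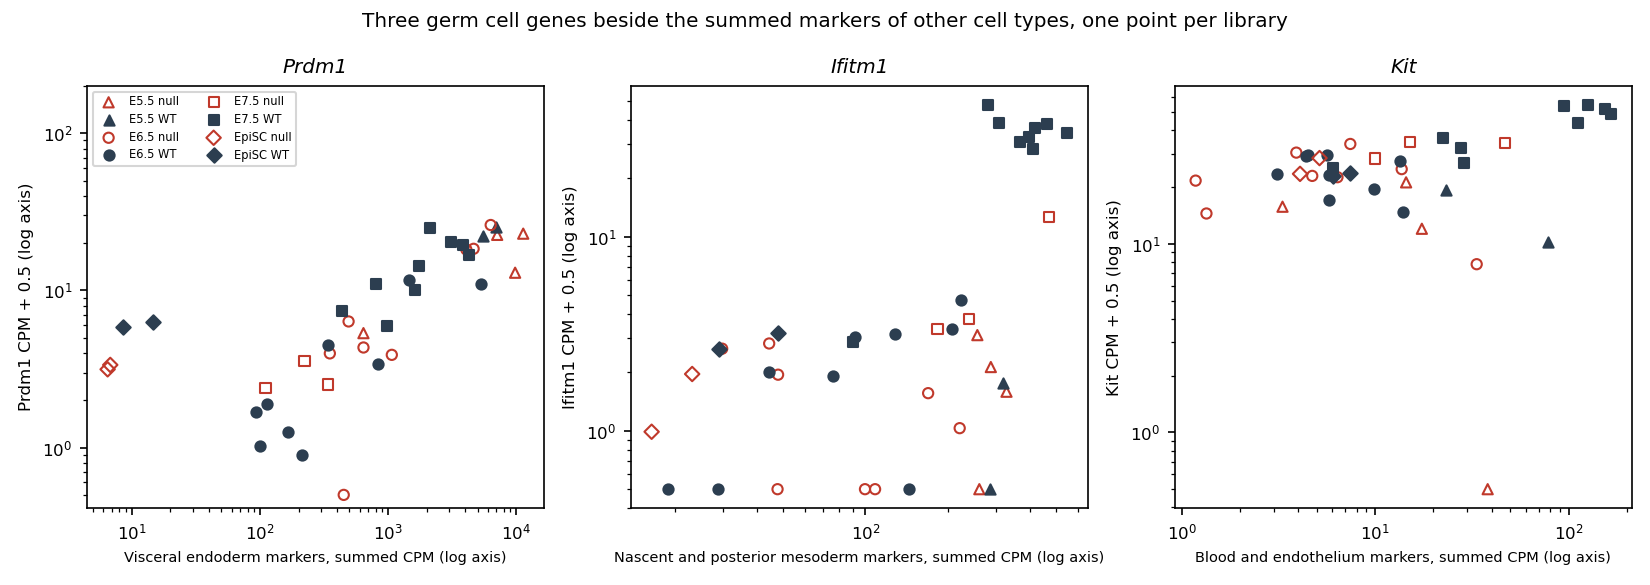
Level of Prdm1, Ifitm1 and Kit (vertical axes, CPM + 0.5, logarithmic) against the summed CPM of markers of a tissue that also transcribes the gene (horizontal axes, logarithmic), with 1 point for each library, open red for Stat3 null and filled blue for WT, the shape giving the stage or EpiSC. Prdm1 lies higher where the visceral endoderm sum is higher, and 8 of the 9 E7.5 WT libraries hold more Ifitm1 than any other library.

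Prdm14 encodes the zinc-finger protein that acts beside Prdm1 in germ cells and restores pluripotency genes there. It was at 0 counts in 33 of the 35 epiblast libraries. E7.5 WT 6 held 56 counts, or 1.56 CPM, and E7.5 WT 7 held 29, or 1.12 CPM, and the other 7 WT and all 3 Stat3 null libraries of that stage held none. With no filter on low counts its change from E6.5 to E7.5 in WT was called (adjusted p = 0.0301), as it was in the single fit of all epiblasts (0.0418), while DESeq2 gave an adjusted p of 0.266; the values rest on these 2 libraries. Dppa3 (Stella), a marker of newly founded germ cells chosen after its values were seen, was also nearly undetected at E7.5, above 3 counts in 1 of 9 WT and 1 of 3 Stat3 null libraries, with a highest level of 0.377 CPM. Neither gene gave a level at E7.5 that could be compared between genotypes.

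Nanos3 encodes an RNA-binding protein that protects germ cells from apoptosis. It was above 3 counts in 10 of 35 epiblast libraries and never above 1.16 CPM, the value of E5.5 Stat3 null 3. In the other groups the highest level was 0.879 CPM in WT at E5.5, 0.226 in Stat3 null and 0.873 in WT at E6.5, and 0.444 in Stat3 null and 0.422 in WT at E7.5. No difference was detectable at this depth, and no group had more than 4 libraries above 3 counts.

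Dnd1, whose product shields germ cell messages from microRNAs, was low throughout, and among epiblasts its highest means were at E7.5. The gene lies at chr18:36763671-36766214 (minus strand) on GRCm38. It overlaps Wdr55 on the opposite strand and shares 140 bases of transcript with it, and since the strand setting of the counting is not given in the sources used here, reads of these bases cannot be assigned. A 959-base stretch is 93.7% identical to Dnd1-ps. WT libraries held 0 and 1.76 CPM at E5.5, 0.261 to 4.09 (median 2.52) at E6.5 and 1.01 to 4.68 (median 3.53) at E7.5. Stat3 null libraries held 0.545, 0.915, 0 and 1.5 CPM at E5.5, 0 to 2.58 (median 1.96) at E6.5 and 2.52, 2.45 and 4.39 at E7.5. The genotypes overlapped at every stage. The log2 fold changes of Stat3 null against WT were -0.22 (standard error 2.25) at E5.5, -0.58 (standard error 0.86) at E6.5 and 0.17 (standard error 0.47) at E7.5, with adjusted p of 0.999, 0.938 and 0.913. From E6.5 to E7.5 the change in WT was 0.35 (standard error 0.46, adjusted p = 0.642).

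Kit encodes the receptor tyrosine kinase that germ cells need to survive and migrate. It was the most evenly measured of the genes. In WT it ran from 9.74 and 18.7 CPM at E5.5 through 14.3 to 29.1 (median 22.8) at E6.5 to 24.6 to 53.7 (median 42.9) at E7.5. In Stat3 null it measured 0, 15.2, 11.5 and 20.7 CPM at E5.5, 7.29 to 33.3 (median 22.2) at E6.5 and 27.8, 34.1 and 33.7 at E7.5. The zero is E5.5 Stat3 null 1, the library that nearly lacks Pou5f1. From E6.5 to E7.5 Kit was higher in WT by 0.73 on the log2 scale (standard error 0.17), with an adjusted p of 0.0034 but a change under the threshold of 1. The Stat3 null epiblasts gave 0.55 over the same interval (standard error 0.33, adjusted p = 0.782), and the difference between these changes was -0.19 (standard error 0.36, adjusted p = 0.925).

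Between genotypes Kit differed little. At E7.5 all 3 Stat3 null values lay within the WT range, and Kit was -0.28 from WT on the log2 scale (standard error 0.22, adjusted p = 0.578). At E6.5 it was -0.11 (standard error 0.23, adjusted p = 0.956). Within the E7.5 WT libraries Kit varied with the summed level of 10 markers of blood and endothelium. The 5 libraries with sums of 95.0 to 166 CPM held 42.9 to 53.7 CPM of Kit, and the 4 with sums of 6.05 to 28.8 CPM held 24.6 to 36.0. At E6.5 no such relation was seen over all libraries of a group, where the sums were low, at 3.10 to 13.9 CPM in WT and 1.18 to 33.5 in Stat3 null. There Pearson's r of log2 Kit with that sum was -0.447 in WT (exact permutation p = 0.231, adjusted 0.367) and -0.353 in Stat3 null (0.385, adjusted 0.462). Spearman's rho was -0.6 in WT and 0.0952 in Stat3 null. Without the 2 libraries farthest from the median sum, r was -0.448 in WT and 0.643 in Stat3 null, so the Stat3 null value rests on those. The E7.5 Stat3 null sums were 9.95 to 46.9 CPM, with 4 of the 10 markers at or under 3 counts in all 3 Stat3 null and 4 in all 9 WT libraries, the embryonic globin Hbb-bh1 being at 0 in both. The part of these cells in the level of Kit was not tested.

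Ifitm1 (Fragilis2) encodes a small interferon-induced membrane protein found on germ cell precursors and on posterior mesoderm, and it showed the steepest stage change of the set. In WT it measured 0 and 1.27 CPM at E5.5, 0 to 4.21 (median 1.51) at E6.5 and 2.38 to 47.2 (median 33.6) at E7.5. Of the E7.5 libraries 8 lay between 27.9 and 47.2 CPM, above every library of the earlier stages, and WT 3 lay within the E6.5 range. From E6.5 to E7.5 Ifitm1 rose by 4.19 on the log2 scale (standard error 0.88, adjusted p = 0.00209), a call kept in all 27 alternatives, with adjusted p of up to 0.00697. E6.5 WT 1 to 3, the deeper libraries, were all at 0. In Stat3 null epiblasts the same interval gave 2.72 (standard error 1.38, adjusted p = 0.671), and the difference between genotypes in this change was -1.46 (standard error 1.61, adjusted p = 0.812).

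At E7.5 the Stat3 null epiblasts held 2.84, 3.26 and 12.1 CPM of Ifitm1. All 3 lay below the 8 higher WT libraries and above WT 3. The log2 fold change of -2.29 (standard error 0.73) did not pass (adjusted p = 0.109). The difference was called without WT 3 (-2.45, standard error 0.40, adjusted p = 0.00129) and by DESeq2 (adjusted p = 0.00732), and was -3.29 (standard error 0.83, adjusted p = 0.121) without Stat3 null 3. The summed level of 10 markers of nascent and posterior mesoderm, T and Mesp1 among them, was 183, 240 and 471 CPM in the Stat3 null libraries in the same order, 89.7 in WT 3 and 280 to 548 in the other WT libraries. At E5.5 the same sum was already 257 to 328 CPM in Stat3 null and 285 to 318 in WT. The E5.5 Stat3 null libraries held no count of T, so other genes of the list made up their sum. Over all 9 E7.5 WT libraries Pearson's r of log2 Ifitm1 with that sum was 0.878 (exact permutation p = 0.1, adjusted 0.2) and Spearman's rho 0.0833 (exact permutation p = 0.843, adjusted 0.843), and without the 2 libraries farthest from the median sum r was -0.065, so the relation rests on those. The part of mesoderm in the level of Ifitm1 was not tested.

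Ifitm3 (Fragilis), the family member used longest as a mark of germ cell competence, went down where Ifitm1 later went up. In WT it measured 6.39 and 14.5 CPM at E5.5, 1.37 to 5.25 (median 2.95) at E6.5 and 1.43 to 5.25 (median 3.43) at E7.5. Both E5.5 libraries lay above every later WT library. Ifitm3 fell by 1.62 on the log2 scale from E5.5 to E6.5 (standard error 0.45, adjusted p = 0.0377), a call lost without either E5.5 WT library (adjusted p = 0.116 without WT 1 and 0.442 without WT 2), without E6.5 WT 5, 6, 7 or 8 (0.0523 to 0.0581) and in the single fit of 35 libraries (0.352). From E6.5 to E7.5 it changed by 0.08 (standard error 0.29, adjusted p = 0.882). Stat3 null epiblasts held 0.627, 3.62, 4.60 and 3.55 CPM at E5.5, 0 to 6.35 (median 3.01) at E6.5 and 1.90, 1.35 and 1.42 at E7.5.

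At E5.5 all 4 Stat3 null values of Ifitm3 lay under both WT values, without a call (-1.75, standard error 0.75, unadjusted p = 0.0526 and adjusted p = 0.999 in edgeR). At E7.5 the Stat3 null values lay under 8 of the 9 WT values, WT 2 being at 1.43 CPM, and the log2 fold change of -1.16 (standard error 0.41) did not pass (adjusted p = 0.125), while DESeq2 called it (adjusted p = 0.0205). At E6.5 it was -0.29 (standard error 0.81, adjusted p = 0.972). The closely related Ifitm2 of the same cluster, chosen after its values were seen, took another course, with means of 16.8 CPM (SD 9.17, n = 2), 29.6 (SD 8.81, n = 9) and 41.6 (SD 6.67, n = 9) in WT over the stages in order, and 40.3 (SD 4.17, n = 3) in Stat3 null at E7.5.

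**Figure D3:**
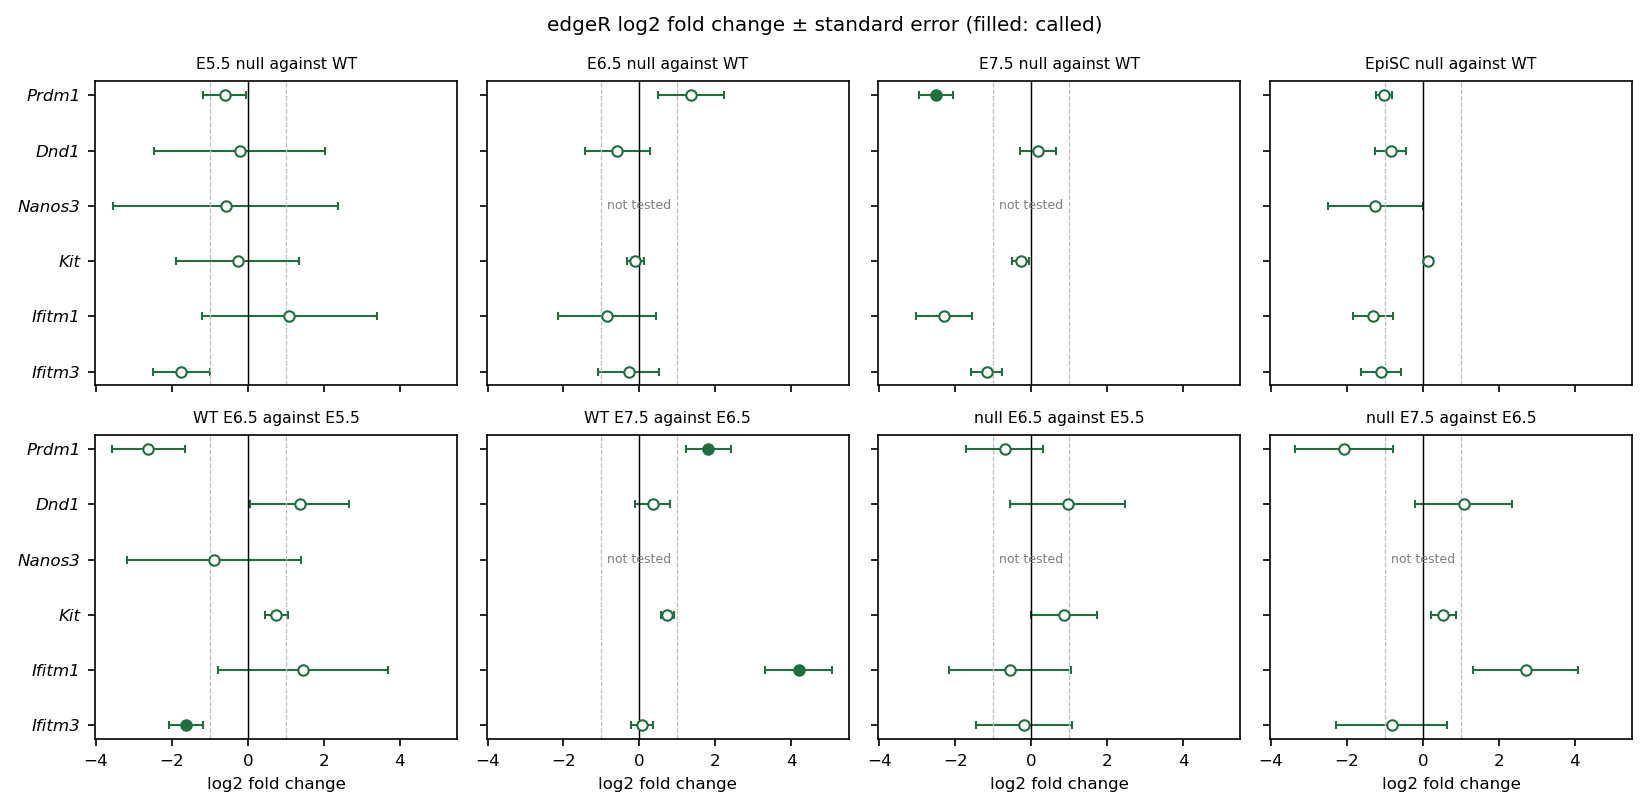
Log2 fold change from edgeR (horizontal axis) with its standard error as a bar for 6 of the 7 genes in 8 of the comparisons, filled where called and open where not, with dashed lines at a change of 1 in either direction; Nanos3 is marked where the filter on low counts removed it. Filled points are Prdm1 for Stat3 null against WT at E7.5, Ifitm3 for WT E6.5 against E5.5, and Prdm1 and Ifitm1 for WT E7.5 against E6.5.

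Stat3 null epiblasts were also set against WT epiblasts of the stage before. For E6.5 Stat3 null against E5.5 WT, none of 5 genes tested was called, with log2 fold changes of -1.30 for Prdm1 (standard error 1.27), 0.54 for Ifitm1 (2.34), -1.95 for Ifitm3 (1.45), 0.59 for Kit (0.47) and 0.74 for Dnd1 (2.1). For E7.5 Stat3 null against E6.5 WT, none of 6 was called by edgeR, with -0.71 for Prdm1 (standard error 0.95, adjusted p = 0.944), 1.85 for Ifitm1 (1.31, 0.792), -1.11 for Ifitm3 (0.46, 0.483) and 0.43 for Kit (0.20, 0.553). Prdm1 at E7.5 thus measured 1.88 to 3.04 CPM in Stat3 null, inside the 0.394 to 11.1 CPM of E6.5 WT and below all E7.5 WT libraries. These comparisons use the same Stat3 null libraries as those within a stage. The paper reports that Stat3 null epiblasts lag behind WT in development. The part of this delay in the differences between genotypes at E7.5 was not tested. At these errors a value that missed the threshold does not show that the groups were alike.

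The other genes of the germ cell pathway were 61 in 7 lists. At E7.5, 55 were tested, 1 was higher and 1 lower in Stat3 null, beside 1.17% of all genes called (16 higher and 215 lower), and their median log2 fold change was 0.07, beside -0.02 over all genes tested. The lower gene was Kitl, which encodes the ligand of Kit. Kitl measured 2.64 to 5.43 CPM in the 3 Stat3 null libraries and 6.94 to 51.4 in the 9 WT libraries, with no overlap, and fell by 3.0 (standard error 0.49, adjusted p = 0.0187). The higher gene was Wnt3, which encodes the Wnt ligand that makes epiblast cells competent to become germ cells. Wnt3 measured 13 to 22.1 CPM in Stat3 null and 1.19 to 9.02 in WT, again with no overlap, and was higher by 2.14 (standard error 0.45, adjusted p = 0.0337). Both calls were lost without any 1 of the Stat3 null libraries, with adjusted p of 0.0693 to 0.135 for Kitl and 0.0922 to 0.157 for Wnt3, and in the single fit of all epiblasts (0.318 and 0.411), and that of Wnt3 also without WT 5, 6, 7 or 8 (0.0552 to 0.0612). None of 52 was called at E5.5 or of 52 at E6.5. The interaction called 1 of 58, Dnmt3a, a DNA methyltransferase, at 1.29 (standard error 0.26, adjusted p = 0.0204), beside 0.443% of all genes. The call of Dnmt3a was lost without E7.5 Stat3 null 1 (adjusted p = 0.134) or 2 (0.163) and in the single fit (0.12).

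In WT from E6.5 to E7.5, 5 of 51 tested genes of these lists were higher and 14 lower, beside 8.83% of all genes called, of which 987 were higher and 531 lower, with a median log2 fold change of -0.16 beside 0.01 over all genes. Among specification signals Bmp4 (2.98, standard error 0.69, adjusted p = 0.00364) and Bmp2 (1.65, standard error 0.58, adjusted p = 0.0423) rose and Wnt3 fell (-1.35, standard error 0.47, adjusted p = 0.039). Among migration and survival genes Kitl (3.47), Cxcr4 (2.55), the chemokine receptor that guides germ cells, and Alpl (1.14), the alkaline phosphatase by which germ cells are stained, all rose. All 5 tested of 10 late germ cell genes fell, among them Ddx4 (-1.73), Piwil2 (-2.83) and Sycp3 (-1.91), which act in germ cells much later. Of 8 genes known to be repressed in early germ cells, 4 of 6 tested fell, including Dnmt3a (-1.10), Myc (-1.51) and Fgf8 (-1.62). Of the partner list Utf1 (-2.69), Nanog (-1.21) and Zfp42 (-2.61) fell, and of other Prdm genes Prdm8 (-3.21). Of these named genes, Bmp2 kept its call in 4 and Wnt3 in 7 of the 18 fits with 1 library left out (adjusted p of up to 0.0719 and 0.0865), Zfp42 lost it without E6.5 WT 3 (0.052), and the others kept theirs in all 18. The summed level of 8 epiblast markers, which include Nanog and Utf1 themselves, fell over the same interval, from 4369 to 7130 CPM in E6.5 WT to 1132 to 5992 in E7.5 WT. Its part in these changes was not tested.

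In WT from E5.5 to E6.5, 4 of 56 tested genes of the lists rose and 3 fell, beside 5.15% of all genes called (523 higher and 547 lower), with a median of 0.04 beside 0.10 over all genes. Pou5f1 (1.40), Nanog (3.11), Elavl2 (1.47) and Cxcl12 (2.16) rose, and Bmp4 (-4.17), Bmp8b (-3.31) and Zfp42 (-3.54) fell. Without E5.5 WT 1 only Pou5f1 of these 7 kept its call, and Bmp8b turned direction (1.11), while Bmp8b lost its call also without E6.5 WT 5, 6, 8 or 9 (adjusted p of 0.0502 to 0.0541) and Cxcl12 without each E6.5 WT library but WT 3 (0.0559 to 0.076). Bmp4 and Bmp8b are signals of the extraembryonic ectoderm, whose 10 markers summed to 365 and 865 CPM in the E5.5 WT libraries and 102 to 471 in those of E6.5, and the part of that tissue was not tested. In Stat3 null over the same interval, where 1.98% of all genes were called, 4 of 53 rose, which were Sox2 (1.89), Elavl2 (1.71), Dnmt3b (1.13) and T, at 0 in all 4 libraries of E5.5 and 0 to 28.6 CPM at E6.5, and 1 fell, Piwil2 (-1.88). Sox2 and Piwil2 kept their calls in all 12 fits with 1 library left out, and T kept its call in 5, Elavl2 in 4 and Dnmt3b in 5. From E6.5 to E7.5 in Stat3 null, 0 of 54 were called by edgeR. Against WT of the previous stage 0 of 55 were called at E6.5 and 1 of 55 at E7.5, Ddx4 (-2.89, standard error 0.52, adjusted p = 0.0389), beside 0.162% of all genes in each. The Ddx4 call was lost without Stat3 null 1, 2 or 3 (adjusted p = 0.2, 0.108 and 0.215) and without E6.5 WT 2, 4, 5, 6 or 9 (0.0534 to 0.0675).

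The genes whose level ran most like each member over the 35 epiblast libraries were taken by Spearman's rho of log2 CPM, as a description in which the points share libraries, stages and depth. For Prdm1 they were Myo6 (rho 0.893, r 0.803), Podxl (rho 0.892, r 0.706) and Amn (rho 0.888, r 0.799), the last being a marker in the visceral endoderm list. For Ifitm1 they were Nkd1 (rho 0.932, r 0.892), Cxx1a (rho 0.900, r 0.797) and Sh3pxd2a (rho 0.894, r 0.835). Kit had Tnfrsf19 (rho 0.878, r 0.599), Ttc3 (rho 0.876, r 0.861) and Antxr1 (rho 0.875, r 0.509). Dnd1 had Cfap46 (rho 0.805, r 0.677), Gm3222 (rho 0.764, r 0.763) and Ndst2 (rho 0.760, r 0.530). Ifitm3 had looser neighbours in Pdzd3 (rho 0.742, r 0.653), Wt1 (rho 0.671, r 0.516) and 4931403E22Rik (rho 0.658, r 0.410). Among the members themselves the closest pair was Kit with Ifitm1 (rho 0.671, r 0.478), followed by Dnd1 with Ifitm1 (rho 0.606, r 0.601) and Dnd1 with Kit (rho 0.582, r 0.314), while Prdm1 and Ifitm1 were unrelated in rank (rho -0.051, r -0.0028).

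In EpiSC lines, which are self-renewing counterparts of the gastrula epiblast, 6 of the 7 genes were above 3 counts in at least 3 of the 4 lines and Prdm14 in 1. These libraries were made with another kit, so their levels stand beside those of epiblasts without a test. Prdm1 measured 2.65 and 2.86 CPM in the Stat3 null lines 2 and 6 and 5.77 and 5.32 in the WT lines 8 and 13. The 2 Stat3 null lines lay below both WT lines, and Prdm1 was the member with the smallest p (log2 fold change -1.03, standard error 0.21, unadjusted p = 0.00195), without passing over all genes (adjusted p = 0.186 by edgeR, 0.00229 by DESeq2). The visceral endoderm sum was 6.46 and 6.77 CPM in the Stat3 null and 14.6 and 8.48 in the WT lines, with Afp and Ttr at or under 3 counts in all 4.

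Ifitm1 in EpiSC lines was 0.489 and 1.46 CPM in Stat3 null and 2.68 and 2.15 in WT, again with both Stat3 null lines lower (-1.31, standard error 0.52, adjusted p = 0.532). Ifitm3 was 1.51 and 1.76 CPM in Stat3 null and 1.68 and 5.27 in WT, with overlap (-1.10, standard error 0.53, adjusted p = 0.647). Dnd1 was 1.21 and 2.09 CPM in Stat3 null and 2.01 and 3.9 in WT, also with overlap (-0.84, standard error 0.41, adjusted p = 0.642). Kit was 23.0 and 28.0 CPM in Stat3 null and 22.2 and 23.2 in WT (0.15, standard error 0.12, adjusted p = 0.824). Nanos3 was 0 and 0.229 CPM in Stat3 null and 0.410 and 0.165 in WT, and Prdm14 was at 0 but for 7 counts in WT 8. With 2 lines in each genotype the spread rests on 4 lines, and Stat3 itself was lower in both Stat3 null lines (3.17 and 3.52 CPM) than in WT (17.8 and 23.0). Of the 61 other germ cell genes 49 were tested and 0 called, with 1885 of 20736 genes reaching an unadjusted p under 0.05 in edgeR.

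By group, Ifitm1 was highest in E7.5 WT (31.7 CPM, SD 12.3, n = 9), then E7.5 Stat3 null (6.08, SD 5.26, n = 3) and WT EpiSC lines (2.41, SD 0.37, n = 2). The first 2 of these overlapped through WT 3 alone, the next 2 did not, and each of the lower groups overlapped the one after it. Prdm1 was highest in E5.5 WT (23.4, SD 2.16, n = 2), then E5.5 Stat3 null (15.5, SD 8.46, n = 4), E7.5 WT (14.0, SD 6.40, n = 9) and E6.5 Stat3 null (9.72, SD 9.30, n = 8), each overlapping the next, with WT EpiSC lines (5.55, SD 0.32, n = 2), E6.5 WT (3.65, SD 4.24, n = 9), Stat3 null EpiSC lines (2.75, SD 0.15, n = 2) and E7.5 Stat3 null (2.31, SD 0.63, n = 3) below. Kit was highest in E7.5 WT (40.8, SD 11.5, n = 9) and E7.5 Stat3 null (31.9, SD 3.52, n = 3), which overlapped, and lowest in the E5.5 groups, with 14.2 (SD 6.34, n = 2) in WT and 11.8 (SD 8.74, n = 4) in Stat3 null, or 15.8 (SD 4.60, n = 3) without Stat3 null 1, which is above WT. Ifitm3 was highest in E5.5 WT (10.5, SD 5.75, n = 2) and lowest in E7.5 Stat3 null (1.55, SD 0.30, n = 3), next to the Stat3 null EpiSC lines (1.63, SD 0.17, n = 2), with which it overlapped.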

How the data were processed

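The authors deposited raw read counts per gene in 1 table of 35 epiblasts and 1 of 4 EpiSC lines. They were made with HISAT2 on GRCm38/mm10 and StringTie, per the study's methods, and the submitters' processing notes also name Trim Galore. Annotation release and strand setting are not given in the sources used here. Libraries were made with a stranded total RNA kit for epiblasts and another kit for EpiSC lines. Depth was 22941210 to 127583699 counts. The non-coding gene Gm26917 took 7.18% to 14.0% of the counts. Here CPM was computed over all counts of a library. Each comparison was fitted in edgeR 4.0.16 (R 4.3.3) on the groups compared: filterByExpr (minimum count 10, minimum total 15), TMM, robust quasi-likelihood test, Benjamini-Hochberg over all genes tested, called at an absolute log2 fold change over 1 and adjusted p under 0.05, two-sided. Alternatives were DESeq2 (the study's tool, here 1.42.0), other size factors, no filter, no gene over 1% of counts, no robust option, all epiblasts in 1 fit, a replicate block, depth groups divided at 40000000 counts and each library left out. Depth groups and libraries that stand apart were chosen after seeing the data.

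The members and lists were chosen with earlier results of these data known. Genes named are Stat3, the 7 members, of each list the called genes (at most 3 in each direction with the smallest p), and the 3 most similar genes of each member above 1 CPM in some epiblast group. Exact permutation tests, two-sided, served correlations, on log2(CPM + 0.5). Epiblasts are separate embryos and EpiSC samples separate lines. No libraries held identical values. The fits between genotypes at E6.5 and E7.5 were also run on simulated data, and their recovery of changed genes is not given here. Promoter motifs other than the STAT site were added after seeing the data. Similar transcripts were sought with blastn 2.17.0 (identity of at least 80% over 100 bases).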

Additional observations from a re-analysis of the deposited data

Results flagged for a closer look

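In 28 combinations of gene and group with 4 to 10 libraries, the highest or lowest library was compared with the nearest other on the log2 CPM scale. The gap, as a share of the group's whole range, was past Dixon's 95% critical value in 7. That value flags about 1 group in 20 where values are spread normally. Groups with libraries at 0 counts are not, and some groups of Prdm14 had no range at all, so the 7 cannot be set against that rate. Kit (0.901) and Ifitm3 (0.869) each had E5.5 Stat3 null 1 far below the other 3 libraries of its group, and that library also nearly lacked Pou5f1. Prdm1 in E6.5 Stat3 null 1, at 0 counts in the deepest epiblast library, lay below the other 7 (0.669). Ifitm1 in E7.5 WT 3 lay below the other 8 (0.813), and Ifitm3 in E7.5 WT 2 below the other 8 (0.499). Nanos3 was high in E5.5 Stat3 null 3 (1.0, the other 3 libraries being at 0) and in E7.5 WT 4 (0.691). The cause of none of these was tested.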

How the results depend on the processing

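Among recomputed log2 fold changes of members, 778 kept their direction and side of the threshold, 21 lost and 8 gained a call and 26 turned direction; the cause was not tested. For Stat3 null against WT at E7.5, members called were 1, and 3 by DESeq2, 2 without the libraries that stand apart, 0 in a single fit of all epiblasts, and 0 to 2 with 1 library left out. For WT E6.5 against E5.5 they were 1, and 2 with E6.5 libraries under 40000000 counts, 2 without those that stand apart, 0 in the single fit and 0 to 2 with 1 left out, and for WT E7.5 against E6.5 2, and 1 to 2 with 1 left out. The interaction had 0, and 1 by DESeq2, 1 with E6.5 libraries under 40000000 counts and 1 without those that stand apart. EpiSC lines had 0, and 1 by DESeq2.

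Deviations of same-numbered libraries correlated positively in all 8 pairs at E6.5 (0.022 to 0.152, with 5 of 8 Stat3 null libraries closest to their own number, a hint from the data and not from the design), and from -0.173 to 0.0114 in 3 pairs at E7.5 (0 of 3 closest). Not every pair exceeded 0.1 and the labels tie no numbers to litters, so the numbers were not taken to pair embryos. A replicate block over the libraries whose number occurs in both groups left 0 members called at E7.5 between genotypes and 0 for WT E6.5 against E5.5 (Prdm1 -1.92, adjusted p = 0.896, and Ifitm3 -1.93, adjusted p = 0.322). It turned Dnd1 (1.88) and Ifitm1 (-0.16) at E5.5 and Kit (0.26) at E7.5 between genotypes, Dnd1 in Stat3 null E6.5 against E5.5 (-1.15) and Ifitm3 in Stat3 null E7.5 against E6.5 (6.17). No paired analysis was possible for the EpiSC lines because they share no numbers.

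Other reversals were these, none of a called value but for Bmp8b. Between genotypes: Kit at E5.5 without the libraries that stand apart (0.15), Ifitm1 at E6.5 with depth group as a term (0.60), Ifitm3 at E6.5 under 40000000 counts (0.28). With the E6.5 libraries under 40000000 counts: Ifitm3 in WT E7.5 against E6.5 (-0.011, and -0.0035 without those that stand apart), and Ifitm1 (0.0053) and Ifitm3 (0.44) in Stat3 null E6.5 against E5.5. With 1 library left out, values ran from -1.21 to 7.52 for Dnd1, -1.57 to 6.16 for Nanos3 and -0.68 to 0.23 for Kit between genotypes at E5.5, -0.24 to 0.019 for Kit at E6.5, -0.15 to 0.32 for Dnd1 at E7.5, -1.93 to 6.28 for Nanos3 in WT E6.5 against E5.5, -0.025 to 0.19 for Ifitm3 in WT E7.5 against E6.5, -0.92 to 0.0083 for Ifitm1 and -0.50 to 0.067 for Ifitm3 in Stat3 null E6.5 against E5.5, -0.0014 to 0.30 for Kit in EpiSC lines, and -4.32 to 1.11 for the list gene Bmp8b in WT E6.5 against E5.5. E5.5 WT has 2 libraries and E7.5 Stat3 null 3, and a group left with 1 library was assumed to vary like the other.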
